A study of Mus musculus with 2 samples.

Results

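Long non-coding RNA (lncRNA) promoters were the 2478 open chromatin sites, of 177440 shared by both replicates, that lay within 500 bp of an annotated lncRNA transcription start site (TSS). The starts were those of lncRNA genes in the basic GENCODE M21 annotation (types lincRNA, antisense, processed_transcript, sense_intronic and bidirectional_promoter_lncRNA), and only starts over 2 kb from every protein-coding TSS were kept. Of 11804 lncRNA starts at 10120 genes, 9497 starts at 8242 genes met that distance. They were set against 41525 starts of 21938 protein-coding genes, with 23730 shared sites, and against 141522 distal sites over 1000 bp from every TSS. No site lay near both classes of start.

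The study profiled embryonic facial prominence, the tissue that forms the face, from B6NCrl mouse embryos aged 14.5 days, with males and females pooled. DNase-seq was used, in which DNase I cuts accessible DNA in nuclei and the cut ends are sequenced. The only group was listed as healthy, with no treatment or mutation named, and had 2 biological replicates made from separate tissue samples under one donor record. For each replicate the authors called peaks, 150 bp regions with a score of 1 to 150, and hotspots, which are broader regions. The tissue was taken whole, so its cell types were measured together, and fewer open cells cannot be told apart from less opening in each cell.

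Replicate 1 held 304233 peaks on the main chromosomes and replicate 2 held 217980, with median scores of 50 and 37. Read counts were not given, so depth is unknown. A site was a peak of each replicate overlapping by at least 1 bp, and a gene is called open here when such a site lay within 500 bp of one of its starts. The promoters of 8 of 8 facial mesenchyme markers and 4 of 4 epithelial markers were open, against 0 of 4 hepatocyte, 0 of 3 erythroid, 0 of 3 lymphocyte and 2 of 3 cardiomyocyte markers (Nkx2-5 and Tnnt2). Of all protein-coding genes 67.5% were open, so an open marker alone says little. With 2 replicates of 1 group no test was made, and the 95% intervals below (exact, by Clopper and Pearson) allow for counting error over genes only. Genes and sites are not replicates.

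lncRNAs are transcripts that are not translated into protein. Some act in the nucleus on neighbouring genes or on whole chromosomes, some are precursors of small RNAs, and for many no function is known. Their promoters are bound by RNA polymerase II like those of protein-coding genes, and many promoters of broadly used genes are CpG islands, stretches where the CpG dinucleotide is not depleted.

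The range of sequence at these promoters is shown by 8 peaks, each 150 bp of the RefSeq GRCm38.p6 genome (the same coordinates as mm10), written 5′ to 3′ on the strand of the gene, with CpG dinucleotides in capitals. Gm10433 (chr12:100187516-100187665, plus strand) had the lncRNA peak of highest mean rank over both lists, and Snhg8 (chr3:123508436-123508585, minus strand) is a host of small nucleolar RNAs. Malat1 (chr19:5802616-5802765, minus strand) encodes an abundant nuclear RNA, and Gm15287 (chr13:111725416-111725565, plus strand) had the highest mean rank among antisense genes. Dnm3os (chr1:162217516-162217665, plus strand) is the microRNA host antisense to Dnm3. Gm20052 (chr5:37893796-37893945, plus strand) has Msx1 as its nearest protein-coding gene, and Runx2os2 (chr17:44709976-44710125, plus strand) lies opposite to Runx2. Gm29358 (chr1:74295816-74295965, plus strand) is a sense-intronic gene.
Gm10433: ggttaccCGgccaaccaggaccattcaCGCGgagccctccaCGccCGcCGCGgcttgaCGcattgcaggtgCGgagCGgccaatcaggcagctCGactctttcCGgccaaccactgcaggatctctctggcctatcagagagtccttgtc
Snhg8: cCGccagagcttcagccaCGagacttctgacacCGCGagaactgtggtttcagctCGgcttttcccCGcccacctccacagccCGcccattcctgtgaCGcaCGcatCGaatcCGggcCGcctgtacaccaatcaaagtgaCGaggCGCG
Malat1: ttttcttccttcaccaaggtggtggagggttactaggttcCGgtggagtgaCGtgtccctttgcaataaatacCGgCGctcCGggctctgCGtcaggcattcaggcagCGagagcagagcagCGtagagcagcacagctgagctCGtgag
Gm15287: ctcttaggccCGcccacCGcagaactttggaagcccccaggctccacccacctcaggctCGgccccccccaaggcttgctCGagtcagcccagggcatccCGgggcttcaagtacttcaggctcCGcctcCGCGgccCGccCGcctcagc
Gm20052: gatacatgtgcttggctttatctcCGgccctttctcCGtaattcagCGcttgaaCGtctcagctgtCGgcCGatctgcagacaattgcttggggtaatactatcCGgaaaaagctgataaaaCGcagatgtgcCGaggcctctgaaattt
Dnm3os: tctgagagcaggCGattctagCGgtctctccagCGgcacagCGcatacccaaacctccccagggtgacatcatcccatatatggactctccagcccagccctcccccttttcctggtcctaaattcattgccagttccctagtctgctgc
Runx2os2: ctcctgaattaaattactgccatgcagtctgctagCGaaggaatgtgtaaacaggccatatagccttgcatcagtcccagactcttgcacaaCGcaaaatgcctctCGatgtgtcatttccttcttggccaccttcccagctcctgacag
Gm29358: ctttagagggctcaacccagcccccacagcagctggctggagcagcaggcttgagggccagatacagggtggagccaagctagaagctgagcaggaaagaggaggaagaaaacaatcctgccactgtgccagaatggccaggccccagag
The Snhg8 peak held 15 CpGs and that of Gm10433 held 12. Those of Gm15287, Malat1 and Gm20052 held 10, 9 and 9. The Dnm3os peak held 4 CpGs and scored 143 in replicate 1 and 112 in replicate 2, the Runx2os2 peak held 3, and the Gm29358 peak, which scored 128 and 103, held 0. High scores thus occurred both at CpG-dense peaks and at the CpG-free Gm29358 peak, whose centre lay 249 bp downstream of the TSS.

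Open promoters made up a smaller share of lncRNA genes than of protein-coding genes. In both replicates, 2007 of 8242 lncRNA genes were open, which is 24.4% (interval 23.4% to 25.3%), against 14813 of 21938 protein-coding genes, which is 67.5% (interval 66.9% to 68.1%). Over genes of every type the share was 36.3%. In replicate 1 alone a peak lay at 32.0% of lncRNA and 70.9% of protein-coding genes (40.3% of all genes), and in replicate 2 alone at 25.8% and 68.7% (37.5% of all genes). The lncRNA share was below the protein-coding share in each replicate, with differences of -38.9 and -42.9 percentage points, while the lncRNA shares of the replicates differed from each other by less than that.

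The remaining lncRNA genes mostly had no peak in either list. These were 5473 genes (66.4%), against 6173 protein-coding genes (28.1%). A peak was found only in replicate 1 at 628 lncRNA genes (7.62%) and only in replicate 2 at 119 (1.44%), with median scores of 42 and 24. Among protein-coding genes the same groups held 685 (3.12%) and 198 (0.903%). A further 15 lncRNA genes had a peak in each list that did not overlap. Open lncRNA genes mostly had a single site, 1564 of them, while 369 had 2 sites and 74 had 3 or more. Of the sites, 2413 belonged to 1 lncRNA gene and 65 to several.

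The lncRNA start itself stood above its surroundings. A shared site lay within 500 bp of 25.2% of lncRNA starts, against 12.1% of points 1 kb upstream and 15.1% of points 1 kb downstream. At 5 kb the shares were 8.93% upstream and 8.76% downstream, and at 20 kb they were 7.97% and 8.13%. Points within 2 kb of a protein-coding TSS were left out. Around protein-coding starts the share was 65.5% at the start and 7.22% and 7.43% at 5 kb on either side. Of the lncRNA starts excluded for lying within 2 kb of a protein-coding TSS, 76.6% had a shared site.

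**Figure D1:**
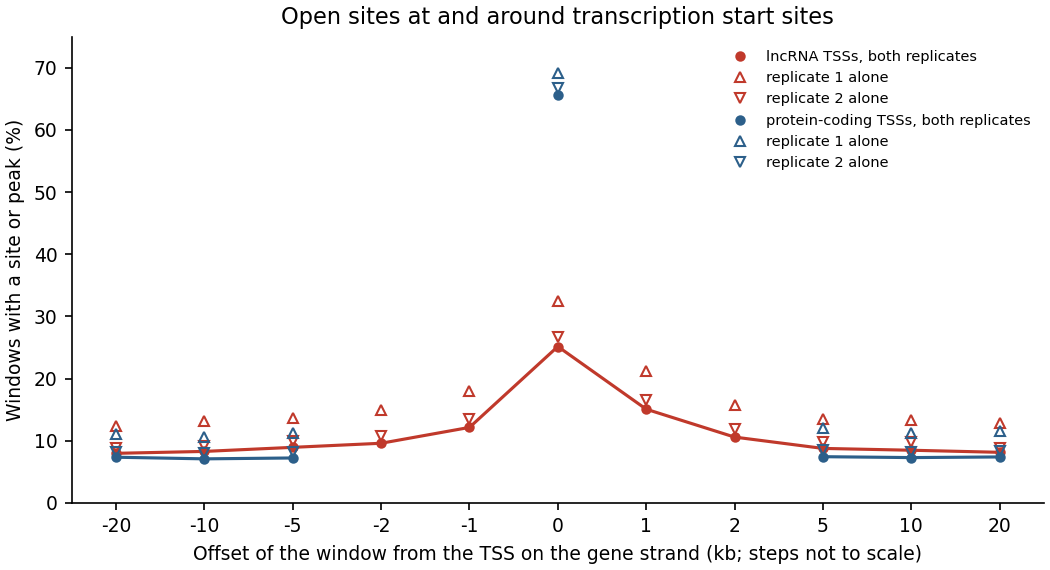
Share of windows of 500 bp on either side that held a shared site (circles) or a peak of one replicate (triangles), at lncRNA and protein-coding starts and at offsets in kb; offsets of 1 and 2 kb have no protein-coding points because points near a protein-coding TSS were left out. The lncRNA start held a site in 25.2% of cases and the flanks at 20 kb in 7.97% and 8.13%.

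The share of open promoters differed by class of lncRNA gene. Processed transcripts were open in 37.8% of 500 genes (interval 33.5% to 42.2%), antisense genes in 24.7% of 1990, lincRNA genes (intergenic lncRNAs) in 23.5% of 5442 and sense-intronic genes, which lie in introns on the coding strand, in 14.3% of 300 (interval 10.6% to 18.8%). Of 10 isolated genes of the bidirectional type, 5 were open. Among the other 4 types, the order of processed transcripts first and sense-intronic genes last was the same in each replicate alone, with 44.4% and 20% in replicate 1 and 39.0% and 15.7% in replicate 2. Antisense and lincRNA genes had overlapping intervals, and their order turned without chromosome Y, with 24.7% and 26.1%.

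The share also differed by other annotated features. Genes with a given name were open in 34.7% of 340, Rik clones in 31.6% of 1461 and genes with a Gm number in 21.4% of 5866. Transcript support level, GENCODE's grade of the evidence for a transcript, gave 29.98% for level 1, 30.4% for level 2, 23.3% for level 3 and 13.9% for level 5. Without chromosome Y, level 5 had 17.67% (interval 15.7% to 19.8%), still below level 3 with 23.3%, and the share of level 1 also rose. Genes with a Gm number then had 23.65%, still below Rik clones with 31.6%. Part of the contrast by level 5 and by Gm number thus came with that chromosome. With it kept, genes with 1 exon were open in 17.9%, those with 2 exons in 22.9% and those with 3 or more in 26.0%. Genes with 1 isolated start were open in 22.2%, with 2 starts in 39.1% and with 3 or more in 58.6%, and each added start adds a window that can hold a site. Protein-coding genes with 1 start were open in 61.3% and those with 3 or more in 83.0%.

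The share varied little with distance to a protein-coding gene up to 100 kb. The share was 27.6% for genes over 2 to 5 kb from the nearest protein-coding TSS, 27.1% for 5 to 10 kb, 27.0% for 10 to 50 kb and 25.5% for 50 to 100 kb, with overlapping intervals. Beyond 100 kb it was 19.9% of 2806 genes (interval 18.4% to 21.4%), and 22.9% without chromosome Y (interval 21.3% to 24.6%). On the autosomes 26.2% of lncRNA genes were open and on the X chromosome 22.2% (32 of 144, interval 15.7% to 29.9%), against 68.9% and 50% of protein-coding genes. On the Y chromosome 1 of 551 lncRNA genes was open, and 4 of 183 protein-coding genes. Without that chromosome 26.1% of lncRNA genes were open. Near the distance limit of the rule, 35.2% of 145 starts lying 1.5 to 2 kb from a protein-coding TSS had a site, and 26.2% of 141 starts lying 2 to 2.5 kb away.

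CpG content of the promoter went with opening in both classes. The ratio of observed to expected CpG (CpG o/e) was taken from 250 bp before to 50 bp after the TSS. For a gene with several starts the highest ratio was used. Its median was 0.214 over lncRNA genes and 0.632 over protein-coding genes. Genes with 1 start had medians of 0.205 (lncRNA) and 0.521 (protein-coding), and those with 3 or more had 0.406 and 0.798. Among lncRNA genes the median was 0.315 with a given name and 0.202 with a Gm number. Support level 1 had 0.231 and level 5 had 0.175, and processed transcripts had 0.287 and sense-intronic genes 0.192. Open shares of these groups were not compared at like CpG content. Among genes with a ratio below 0.1, 10.5% of 1728 lncRNA and 8.83% of 1846 protein-coding genes were open, and between 0.1 and 0.2 the shares were 15.2% and 14.9%, with overlapping intervals. Without chromosome Y they were 12.1% and 9.01% below 0.1, where the intervals then just missed each other, and 17.3% and 14.9% between 0.1 and 0.2. The classes parted at higher ratios. Between 0.5 and 0.6, 42.6% of lncRNA and 82.2% of protein-coding genes were open, and at a ratio of 1.0 or more 77.8% of 54 lncRNA genes (interval 64.4% to 88.0%) and 98.5% of 2393 protein-coding genes.

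**Figure D2:**
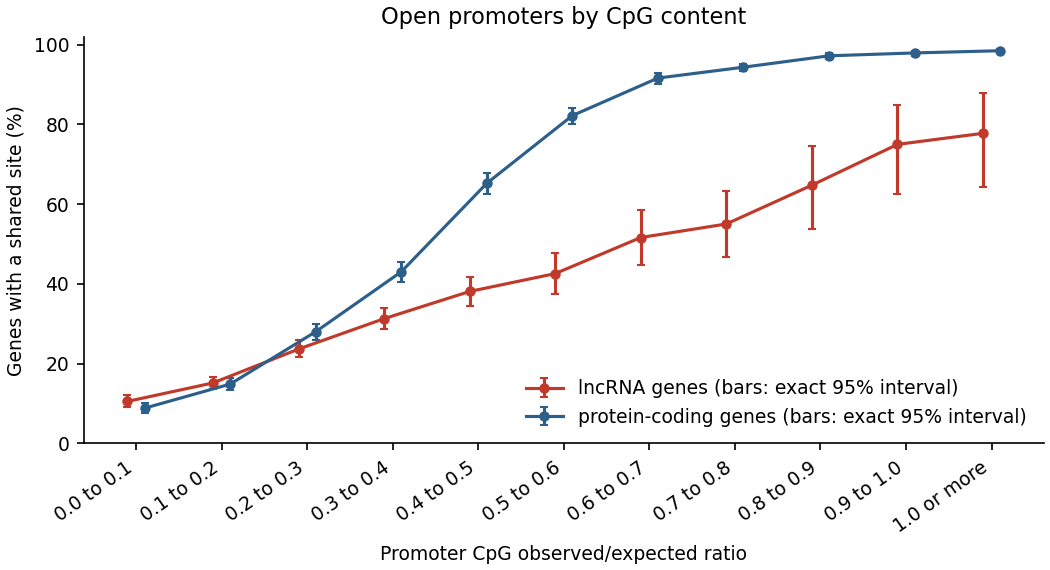
Share of lncRNA and protein-coding genes with a shared site within 500 bp of a TSS (vertical axis, %), by CpG observed/expected ratio of the promoter; bars are exact 95% intervals. The intervals of the classes overlap below a ratio of 0.2 and are apart above it.

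When protein-coding genes were weighted to the CpG content of lncRNA genes in 10 bins, the difference in open share was -9.08 percentage points, against -43.2 without weighting. It was -7.66 in replicate 1 alone and -9.21 in replicate 2 alone, and reached -5.96 when only lncRNA genes of support level 1 or 2 were kept. With only genes of 1 TSS in both classes it was -10.2. In the bin of highest CpG content, 55.2% of lncRNA genes and 95.1% of protein-coding genes were open. In the lowest bin the shares were 5.83% and 7.06%.

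Sites at lncRNA promoters had scores between those of protein-coding promoters and distal sites. Their median score in replicate 1 was 72 (quartiles 55 and 93), against 98 (66 and 127) at protein-coding promoters and 60 (47 and 76) at distal sites. In replicate 2 it was 47 (34 and 70), against 83 (50 and 116) and 38 (28 and 53). The score is the authors' own value for each peak and was compared only within a list. The highest decile of scores in the list took in 25.2% of lncRNA sites in replicate 1 and 17.3% in replicate 2, against 54.0% and 51.5% of protein-coding sites. Both scores reached 100 at 206 open lncRNA genes (10.3%), against 9083 open protein-coding genes (61.3%).

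**Figure D3:**
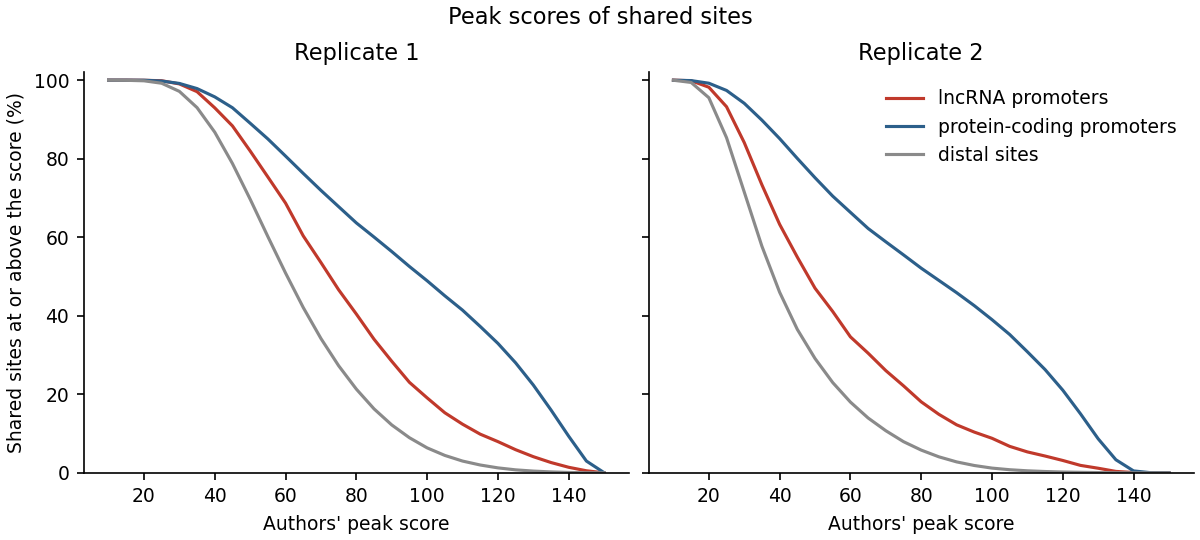
Share of shared sites (vertical axis, %) at or above each authors' peak score, for lncRNA promoters, protein-coding promoters and distal sites, in each replicate. The lncRNA curve runs between the other curves, with medians of 72 in replicate 1 and 47 in replicate 2.

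Scores within the lncRNA class differed by CpG content. The 572 lncRNA sites with a CpG o/e of 0.6 or more in the peak had median scores of 86.5 in replicate 1 and 69 in replicate 2, and the 1906 others 69 and 44. The same split gave 111 and 100 against 73 and 52 at protein-coding promoters. CpG-poor sites thus had closer scores in the classes (69 against 73, and 44 against 52), while CpG-rich lncRNA sites stood further below CpG-rich protein-coding sites (86.5 against 111, and 69 against 100).

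The hotspots that held lncRNA sites were narrower than those at protein-coding promoters. Their median width was 427 bp in replicate 1 and 328 bp in replicate 2, against 898 and 876 bp at protein-coding promoters and 311 and 254 bp at distal sites. Of lncRNA sites, 99.5% lay in a hotspot of replicate 1 and 96.4% in one of replicate 2. The hotspot value, a −log10 of a q-value that ends at 100, was at that ceiling for 64.7% and 47.8% of lncRNA sites, against 84.0% and 79.1% of protein-coding and 50.3% and 31.3% of distal sites.

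lncRNA sites were spread more widely around the start. The peak centre lay within 100 bp of the TSS at 35.7% of lncRNA sites and at 49.5% of protein-coding sites, and the median distance was 172.5 bp and 103 bp. In both classes most centres lay upstream (59.2% and 58.5%), and the median position was -36 bp at lncRNA and -20 bp at protein-coding starts. The 100 bp just upstream of the TSS held 24.7% of lncRNA and 36.3% of protein-coding centres. At CpG-poor sites the classes were closer, with 33.9% and 37.7% within 100 bp. Near the 500 bp limit, 241 sites at 400 to 500 bp from a lncRNA TSS had median scores of 67 and 45, and 236 sites at 500 to 600 bp had 67 and 44.

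**Figure D4:**
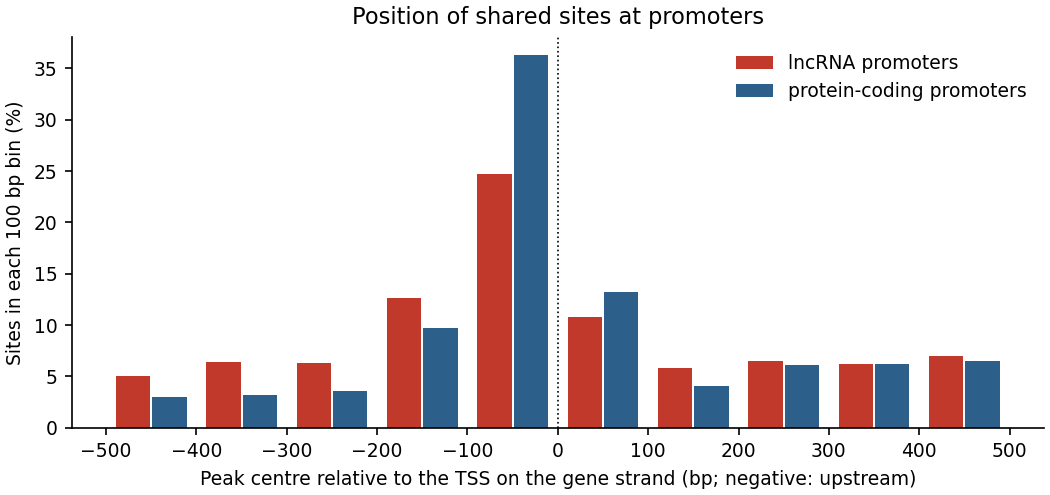
Position of the peak centre relative to the TSS on the strand of the gene (horizontal axis, bp) at lncRNA and protein-coding promoters, as the share of sites in bins of 100 bp. The bin just upstream of the start is the tallest in both classes, with 24.7% of lncRNA and 36.3% of protein-coding sites.

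The sequence of lncRNA sites lay between that of the other classes. Median GC content was 53.3% at lncRNA sites, 64.0% at protein-coding sites and 49.3% at distal sites, and the median number of CpGs in a peak was 4, 11 and 2. No CpG was present in 5.37%, 1.32% and 15.4% of sites. Repeat-masked bases made up 7.74% of lncRNA sites on average, 5.996% of protein-coding and 8.69% of distal sites, against 36.4% of the genome.

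The strings of 5 promoter factors, Sp1, ETS, NRF1, YY1 and ZBTB33, were less frequent at lncRNA than at protein-coding sites. They were searched on both strands of 150 bp, and strings may share bases. The GC box GGGCGG, bound by Sp1 and its relatives, was in 15.01% of lncRNA sites, 46.2% of protein-coding and 5.99% of distal sites. In CpG-rich sites it was in 36.4% of lncRNA and 56.4% of protein-coding sites, and in CpG-poor sites in 8.60% and 24.3%. The ETS string CCGGAAG was in 3.19%, 9.01% and 1.00%, an NRF1 consensus in 0.928%, 5.14% and 0.178%, and the YY1 string AANATGGCG in 0.282%, 1.88% and 0.218%. A ZBTB33 consensus was in 0 of 2478 lncRNA sites and in 104 protein-coding sites.

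Of the other strings, the first 5 given here had lncRNA shares nearer to those of distal than of protein-coding sites. So had the promoter factor strings above and TATAAA, while the cyclic AMP element was nearer to protein-coding sites. The E-box CANCTG was in 43.2% of lncRNA sites, 27.3% of protein-coding and 47.2% of distal sites. The AP-1 string TGANTCA was in 6.70%, 2.52% and 6.60%, the homeodomain string TAATTA in 3.31%, 0.855% and 4.13%, the TEAD string GGAATG in 11.5%, 6.33% and 12.5%, and a CTCF consensus in 4.72%, 2.08% and 7.02%. CCAAT was at a like share in all classes, with 19.2%, 22.4% and 19.1%. The cyclic AMP element TGACGTCA was in 1.21%, 1.95% and 0.356%, an RFX consensus in 0.444%, 0.249% and 0.248%, and TATAAA in 4.56%, 2.33% and 6.35%. TATAAA was thus more frequent at lncRNA than at protein-coding sites. The RFX consensus was in only 11 lncRNA and 59 protein-coding sites, and in CpG-rich sites its shares were 0.175% and 0.222%. A string is a match of letters and not a bound site.

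Peaks at lncRNA starts were found again less often than those at protein-coding starts from replicate 1, and about as often from replicate 2. Over the whole lists, 59.2% of peaks of replicate 1 and 83.6% of replicate 2 were found again. Replicate 1 had 3651 peaks near a lncRNA TSS, and 69.0% of them were also in replicate 2, against 83.1% of 28528 near protein-coding starts. Replicate 2 had 2929, and 86.7% of them were also in replicate 1, against 86.4% of 27620. In the lowest quartile of scores of replicate 1, 27.7% of lncRNA peaks were found again and 38.1% of protein-coding peaks, and in the highest quartile 96.0% and 95.7%. In replicate 2 the lncRNA share was the higher in each quartile, with 61.5% of lncRNA and 45.3% of protein-coding peaks in the lowest. In the next quartiles the shares were 82.0% and 64.9%, and 91.9% and 81.8%. In the highest they were 97.0% and 96.7%, with overlapping intervals. Across the shared sites the scores of the replicates had a Spearman's rho of 0.870 at lncRNA promoters (n = 2478), 0.957 at protein-coding promoters and 0.789 at distal sites. This describes sites of the same 2 libraries and has no p-value.

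Most of the lncRNA genes of highest mean rank had no given name, like most isolated lncRNA genes. A given name was held by 340 of all 8242. The CpG o/e of the first 15 promoters was 0.564 to 1.09, against a median of 0.214 over all isolated lncRNA genes. Gm10433 scored 148 in replicate 1 and 143 in replicate 2, and 1700096K18Rik scored 146 and 143. 1810026B05Rik, the mouse Chaserr gene upstream of Chd2, scored 147 and 137. 6720427I07Rik scored 147 and 137 and 1700012D14Rik, near Eif4g2, scored 145 and 138. 4833417C18Rik and Gm11527 start on opposite strands and share one site, which scored 146 and 135. The next were 1700028E10Rik, 5430416N02Rik, 4932412D23Rik (near Zbtb20), Snhg8, Gm20732, Gm15287, Gm13421 and Gm37494, with 143 to 147 in replicate 1 and 132 to 137 in replicate 2. Among the other types, the antisense gene Gm12758 scored 142 and 131, the sense-intronic Gm11656 scored 111 and 100, and of the bidirectional type Gm26684 scored 85 and 69 and 1700022H16Rik, near Osr1, scored 83 and 70.

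Genes with most shared sites at their starts were hosts of microRNAs and Malat1. Mir99ahg, the host of a cluster with miR-99a and let-7c, had 9 sites over 13 starts, the strongest with scores of 135 and 118. 3110039I08Rik, the mouse Mir100hg gene, had 8 sites over 17 starts (127 and 110 at the strongest). Malat1 had 6 over 4 starts, and 5 genes had 4, of which 4930578M01Rik and Gm43782 had the highest mean rank.

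Peaks found in only 1 replicate scored at most 87. The highest scores in replicate 1 without any peak in replicate 2 were 87 at Gm44956, 82 at 2700069I18Rik (near Zfhx4), 81 at AC091309.2, 78 at Gm11537 and 77 at Gm11476 (near Snai1). The highest in replicate 2 without any in replicate 1 were 60 at Gm29683 (near Nr2f2), 52 at Gm30906, 48 at Gm47071 (near Pitx1), 46 at Gm42679 and 44 at Gm16277.

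Known lncRNAs were examined in 9 lists of 161 symbols, which gave 100 isolated lncRNA genes (10 symbols matched under another name, and Carmn was listed under 2). Of the other symbols, 28 symbols were not matched in the annotation, 27 genes had no isolated start and 5 had another gene type. Of the 100 genes, 61 were open, 3 had a peak in replicate 1 only and 36 had no peak, against 24.4% open over all isolated lncRNA genes. Of those not open, 23 had peaks of both lists within 5 kb of an isolated start. A protein-coding start can lie in that window. This count was not made over all isolated lncRNA genes, so it cannot be read as a trait of the listed genes. Of all isolated lncRNA genes without a peak, 27.9% had no distal shared site 2 to 20 kb from the start. The lists hold mostly well-studied genes, and genes with a given name were open in 34.7% of 340. Median CpG o/e ran from 0.326 (pluripotent cells) to 0.945 (hosts of small nucleolar RNAs), against 0.214 over all isolated lncRNA genes. RNAs of X inactivation had 0.923. Of 64 isolated lncRNA genes with a ratio between 0.9 and 1.0, 75% were open. The lists were not compared at like CpG content.

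RNAs of X inactivation were open in 5 of 5 genes. Xist, the RNA that coats the inactive X chromosome, scored 74 in replicate 1 and 52 in replicate 2. Tsix, its antisense repressor, scored 59 and 35, and Jpx, an activator of Xist, scored 113 and 88. Ftx, a host of microRNAs beside Xist, scored 135 and 120, and Firre, a nuclear RNA of the X chromosome, 130 and 108. Xist and Tsix had the lowest scores of the list in each replicate. The other X-linked genes of highest rank, 5530601H04Rik (136 and 119) and 5730405O15Rik (135 and 118), were near those of Ftx. Male and female embryos were pooled, so the active and inactive X chromosomes were measured together.

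Imprinted lncRNAs were open in 6 of 9 genes. Kcnq1ot1 and Airn, which silence neighbouring genes on the paternal chromosome, scored 137 and 107, and 122 and 108. H19, the maternally expressed RNA beside Igf2, scored 126 and 104, and Meg3 scored 117 and 88. Nespas, antisense at the Gnas locus, scored 133 and 109, and Peg13, inside Trappc9, 125 and 104. The open genes of this list thus scored within a narrow range, 117 to 137 in replicate 1 and 88 to 109 in replicate 2. Rian and Mirg, which follow Meg3 in the same cluster, and Snhg14, which runs antisense to Ube3a, had no peak at the starts examined.

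Abundant nuclear and ubiquitous RNAs were open in 14 of 15 genes. Chaserr, Dleu2 (136 and 126), Dancr (134 and 127), Lockd (133 and 116) and Oip5os1 (129 and 119) had the highest scores in replicate 1. The paraspeckle RNA Neat1 scored 123 and 120, the nuclear speckle RNA Malat1 115 and 120, Epb41l4aos 111 and 117, and Norad, which binds Pumilio proteins, 107 and 92. Lower scores were found at Trp53cor1 (99 and 58), Lncpint (83 and 63), Miat (80 and 51), Pvt1 (70 and 68) and Cdr1os (68 and 40). Crnde had no peak at its isolated start.

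Hosts of small nucleolar RNAs were open in 9 of 10 genes. Their scores were 121 to 144 in replicate 1 and 108 to 135 in replicate 2. The highest in replicate 1 were Snhg6 (144, and 123 in replicate 2), Snhg8 (143 and 135) and Snhg15 (139 and 129). Snhg16, Snhg12, Snhg5, Snhg20, Snhg7os and Snhg17 scored 121 to 135 in replicate 1. Snhg7os, counted here, is annotated as antisense and named for the strand opposite to Snhg7, which was not matched in the annotation. The list's median was 135 and 123, against 75 and 50 over all open lncRNA genes. Snhg1 had no peak at its single isolated start, 1 of 4 annotated. Peaks scoring 146 and 134 lay about 2 kb upstream (-2170 and -2150 bp). The protein-coding start of Slc3a2 lay 2131 bp from that isolated start, and which gene the peaks belong to was not tested.

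Hosts of microRNAs were open in 13 of 15 genes. Mir22hg scored 148 and 129, Dnm3os, the host of miR-199a and miR-214, 143 and 112, Carmn, the host of miR-143 and miR-145, 122 and 101, and Mirlet7bhg 116 and 89. Much lower were Mir155hg (65 and 55), Mir670hg (62 and 56), Mir124-2hg (59 and 30) and Mir142hg (48 and 36). Mirt1 (61 and 38), which the list also held, is named for myocardial infarction and not for a microRNA. Mir17hg, the host of the miR-17 to miR-92a cluster, scored only 46 and 36 at its annotated start, while peaks scoring 125 and 119 lay upstream of it, at -2029 and -2049 bp. Mir124a-1hg and Mir9-3hg, hosts of microRNAs of the nervous system, had no peak at their starts.

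RNAs antisense to or beside developmental regulators were open in 11 of 29 genes. Runx2os2, opposite to the bone regulator Runx2, scored 115 and 89, Hoxd3os1 100 and 98, Tbx3os2 83 and 84, Sox5os2 86 and 41 and Six3os1 76 and 62. Pantr1 (74 and 52), Rmst (67 and 46), Tbx3os1 (61 and 45), Halr1 (56 and 40), Sox2ot (56 and 48) and Hoxb3os (49 and 38) were lower. Dlx1as, antisense to the jaw patterning gene Dlx1, had a peak only in replicate 1 (63), as had Pantr2 (50) and Sox5os5 (26). No peak was found at the isolated starts of the other 15, among them Hotair of the HoxC cluster, Fendrr, Hand2os1, Otx2os1 and Dlx6os1. Only 2 of 17 annotated starts of Hand2os1 and 1 of 4 of Otx2os1 were isolated, and the others were not examined. Within 5 kb, peaks of both lists lay at Hand2os1 (108 and 96), Otx2os1 (78 and 62) and Fendrr (70 and 47), and none at Hotair. The Otx2os1 peaks lay at -2589 bp, and the protein-coding start of Otx2 lay 2644 bp from the isolated start. Hand2 lay 3250 bp from an isolated start of Hand2os1, and Foxf1 23973 bp from that of Fendrr. Which gene these peaks belong to was not tested. The median score of the open genes was 74 and 48.

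RNAs named for other tissues gave small counts. Of 4 genes of heart and muscle, Bvht (106 and 71) and Carmn were open and Mhrt and Hand2os1 had no peak at their isolated starts. Of 3 blood and immune genes, Morrbid (85 and 41), Mir155hg and Mir142hg were open. Of 15 genes of pluripotent cells, only Platr22 (56 and 38) and Platr14 (52 and 30) were open and 13 had no peak, so this was the list with the lowest share, 13.3% (interval 1.66% to 40.5%), a range that includes the 24.4% over all lncRNA genes.

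**Figure D5:**
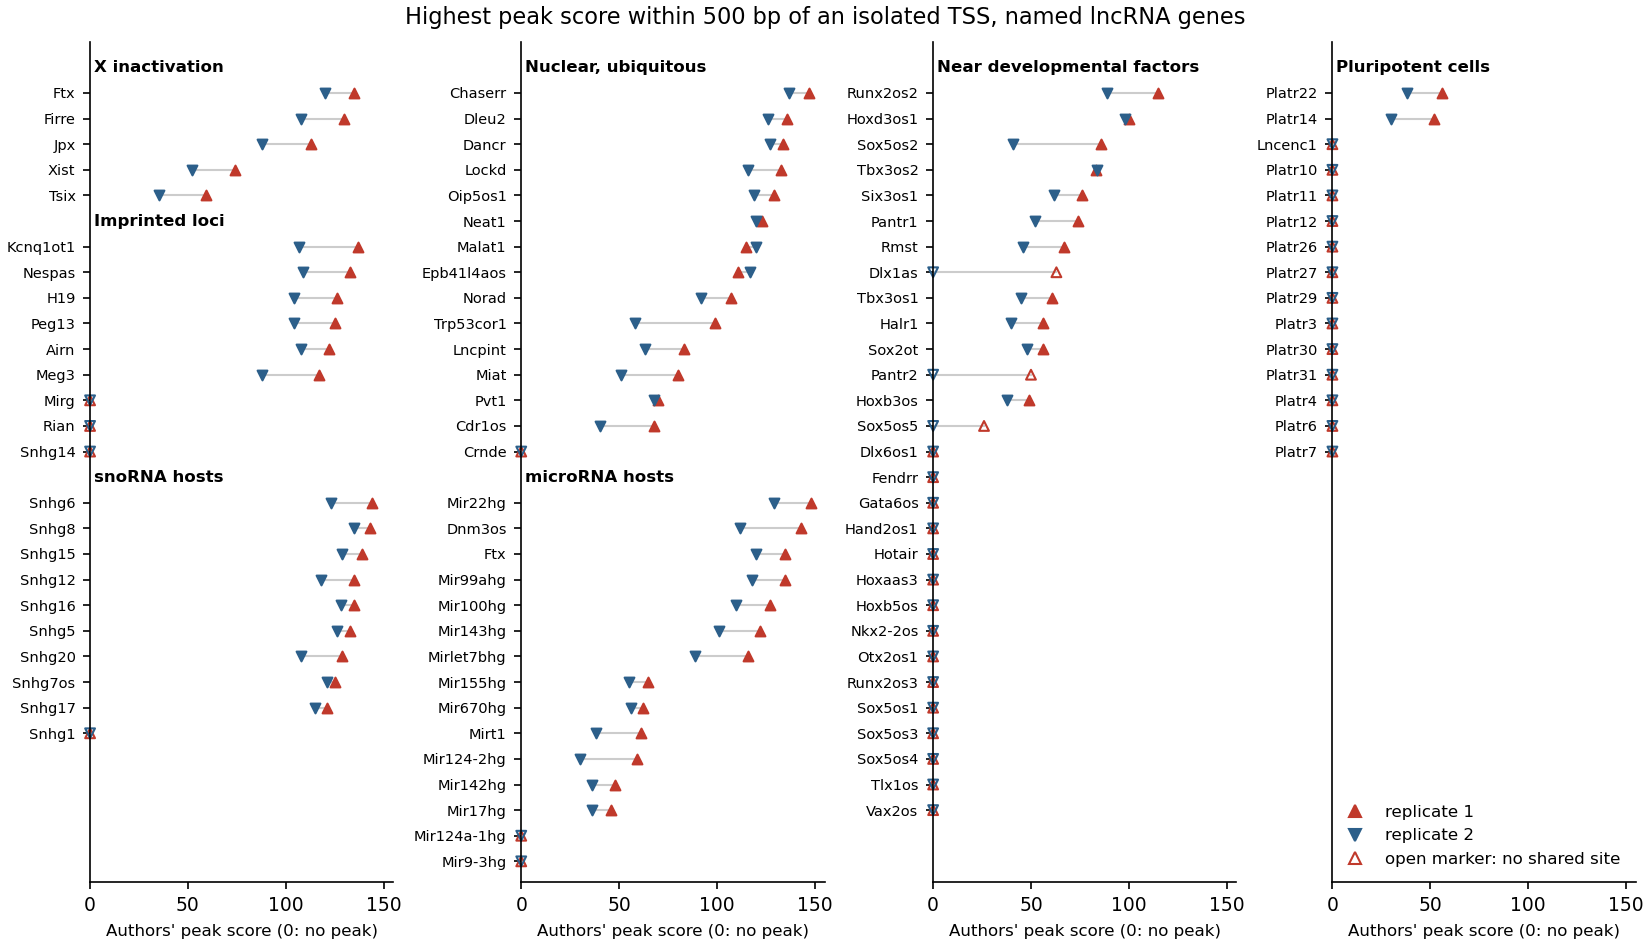
Highest authors' peak score (horizontal axis; 0 where no peak was called) within 500 bp of an isolated TSS for lncRNA genes of 7 lists, in replicate 1 (upward triangles) and replicate 2 (downward triangles); open markers are genes without a shared site. Hosts of small nucleolar RNAs sit at 108 to 144 apart from Snhg1, and 13 of 15 genes of pluripotent cells sit at 0.

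lncRNA genes whose nearest protein-coding gene is a developmental transcription factor, of 90 families and names, were open somewhat more often than other lncRNA genes. The shares were 30.9% of 427 (interval 26.6% to 35.5%) and 24.0% of 7815 (interval 23.0% to 24.96%), a difference of 6.92 percentage points. It was 10.5 in replicate 1 alone and 9.58 in replicate 2 alone, and 3.95 when peaks below each list's median score were left out. At like CpG content the difference was 1.70 points, and the median CpG o/e of the groups was 0.294 and 0.211. In the lower 5 bins of CpG content 17.3% and 13.3% were open, and in the highest bin 46.8% and 56.1%, with overlapping intervals.

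The strongest open promoters of that group lay near a range of regulators. 1700113A16Rik, near the muscle factor Mef2d, scored 145 and 131, and 1700064M15Rik and Gm26839, both nearest to Foxn3, scored 128 and 121, and 108 and 107. Snhg6, described above, has Tcf24 as its nearest protein-coding gene. Gm47061, 5834 bp from the start of the neural crest factor Tfap2a, scored 131 and 114. 4632428C04Rik and Gm26569, both nearest to the Notch target Hes1, scored 133 and 108, and 110 and 103. Gm20052, 69189 bp from Msx1, a factor of tooth and palate growth, scored 130 and 110. Runx2os2 and Hoxd3os1 completed the 10. Nearness is no evidence that a site acts on the gene.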

How the data were processed

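DNase-seq peaks and hotspots of 2 replicates were used as the authors deposited them. Per the labels and the description deposited with them, they were called per replicate on mm10 and not pooled; no aligner, caller or threshold is named in the sources used. The deposited peak score is a whole number with no stated normalization. The hotspot value is, by the deposited file format, the −log10 of a q-value. Only the 19 autosomes, X and Y were used, with repeated regions kept once.

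Sites, promoter states, CpG ratios, motif counts and repeat-masked shares were computed with Python 3.11.15, numpy 2.4.6, pandas 2.3.3 and scipy 1.17.1 from GENCODE M21 basic and the RefSeq genome, and tested on simulated data. Distances run from a TSS to the nearest base of a site, or to the peak centre where stated. For a gene, the highest score within 500 bp in each list is given. Read depth is unknown, a longer list can hold weaker peaks, and a missing peak does not show closed chromatin. Sequencing instruments are given for replicate 1 only.

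The promoters and lists were chosen with earlier results of these data known. Named genes are the isolated members of the lists, the 15 genes of highest mean rank, the 5 with most sites, the first 3 of each type and of the X chromosome, the first 5 found in each replicate only, and the first 10 near a developmental transcription factor. Peaks outside the window of Snhg1, Mir17hg, Hand2os1, Otx2os1 and Fendrr were singled out after their values were seen. Alternatives covered the window, the distance from protein-coding starts, the overlap, the score, the annotated start, CpG bins and single replicates; values without chromosome Y were added after the data were seen.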

Additional observations from a re-analysis of the deposited data

How the results depend on the processing

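Of 71 alternative results, none turned the sign of a difference; 46 stayed within 1 SD between the replicates (the count, within 1.5 times) and 25 moved. The mean difference in peaks found by the other replicate, -6.94 points, had a wide SD, since it was -14.1 in replicate 1 and 0.228 in replicate 2. Open lncRNA genes numbered 1390 to 2638, within 1.5 times 2007. The open share, lncRNA minus protein-coding, was -43.2 percentage points; it was -39.1 with windows of 1000 bp, -46.4 with the peaks above each list's median score, -39.4 with gene starts only and -42.9 to -38.9 with 1 replicate left out. At like CpG content it was -9.08, and -11.1 with 250 bp, -6.41 with 1000 bp, -10.3 with the peaks above the median, -12.0 with gene starts and -9.21 to -7.66 without 1 replicate. Alternatives chosen after seeing the data gave -39.1 for genes with 1 TSS and -37.5 for support level 1 or 2. At like CpG content they gave -10.2 and -5.96. The median score difference was -37 with 250 bp and -16 with 1000 bp in replicate 1, and -49 and -23 in replicate 2. The excess near developmental transcription factors, 6.92 points, was 6.05 with 250 bp, 9.22 with 1000 bp, 6.199 with an overlap of 75 bp, 3.95 with the peaks above the median, 3.53 with gene starts and 9.58 to 10.5 without 1 replicate, and, chosen after seeing the data, 5.11 without chromosome Y and 1.70 at like CpG content. The cause of these moves was not tested. No paired analysis was possible because the study has 1 group. Unknown depth limits what a missing peak shows.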

Other observations

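The state of the nearest protein-coding promoter and that of the lncRNA promoter were set side by side. Over 50 kb apart, 25.1% of 3152 lncRNA genes were open where that promoter was open, against 12.1% of 1095 where it was not. Without chromosome Y, a choice made after seeing the data, the shares were 25.1% and 21.7%, with overlapping intervals. Over all distances they were 26.5% and 24.3% without chromosome Y, also with overlapping intervals. Within 10 kb the order turned, with 26.7% of 923 and 30.3% of 304 without chromosome Y. At 10 to 50 kb the shares were 28.4% and 23.8%, and the intervals overlapped at both distances. Distal sites 2 to 20 kb from the lncRNA start had a mean of 3.405 at open genes outside chromosome Y, 3.09 at genes with a peak in replicate 1 only, 3.68 at those with a peak in replicate 2 only and 2.62 at genes without a peak.

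The TATA box went with opening differently in each class. TATAAA at 15 to 40 bp upstream was found at 1.59% of 2389 open and 1.15% of 7108 other lncRNA starts, with overlapping intervals. Among protein-coding starts it was found at 0.878% of open and 3.59% of other starts.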
